A study of Mus musculus with 24 samples.

Results

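R448Q replaces an arginine by a glutamine in zinc finger 7 of CTCF, and the cells kept on this protein were compared here with cells kept on wild-type CTCF. The members are 4 of the 24 libraries of the study, the 2 R448Q ID and the 2 WT ID libraries. They were chosen by their labels and not by any measured value, though earlier results of these data were known. E14Tg2a mouse embryonic stem cells (129/Ola) were used, in which endogenous CTCF is degraded through an auxin-inducible degron when indole-3-acetic acid (IAA) is added, and doxycycline switches on a Ctcf transgene. ID means 500 µM IAA with 1 µg/ml doxycycline for 2 days, so both groups were treated to lose the endogenous protein and differed in the transgene, R448Q or wild type (WT). All cells grew without feeders in serum with leukemia inhibitory factor, the kinase inhibitor CHIR99021 and the MEK inhibitor PD0325901. H455R ID (2 libraries, the other substitution of finger 7), the 16 ID libraries of the other 8 mutants with H455R among them, and WT IAA (2 libraries of the WT transgene line with IAA and no doxycycline) served as further comparisons. Total RNA depleted of ribosomal RNA was sequenced. Each transgene sits in a cell line of its own, so the line and the substitution cannot be told apart, and the labels give neither the transgene promoter nor the number of clones. They also do not say whether the 2 replicates were separate cultures, so p-values cover the variation among these libraries, part of which could be technical.

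CTCF is a DNA-binding protein with a row of zinc fingers that read a long, directional motif. It halts loop extrusion by the cohesin ring, and so sets the borders of chromatin loops and insulates enhancers from promoters. At imprinted genes, where only the maternal or the paternal copy is active, it binds regions whose DNA methylation differs between the copies.

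The affected codon was placed on the mouse gene because the deposited values are per gene and do not show the substitution itself. The codon of Ctcf changed in R448Q (transcript ENSMUST00000005841.15, 736 residues) is CGA at chromosome 8, 105671425 to 105671427 in mm10, plus strand, in exon 7. It lies in the 7th of 10 cysteine and histidine finger motifs found in the protein, which spans residues 439 to 460, and it is residue 10 of that motif. The codon changed in H455R is CAC at 105674874 to 105674876 in exon 8 and codes for one of the zinc-holding histidines of the same motif. The 66 coding bases of the motif are shown with the R448Q codon in capitals, because both substitutions compared here fall within them.
Ctcf finger 7: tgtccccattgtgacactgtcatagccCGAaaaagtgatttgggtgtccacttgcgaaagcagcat

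Recovered reads were 46.0 M and 50.4 M in R448Q ID and 57.5 M and 42.9 M in WT ID, within the 27.8 M to 77.1 M of the 22 treated libraries. The counts of the libraries within a group were further apart than sampling alone gives, so none was counted as a repeat. Mitochondrially encoded genes took 3.26% and 3.38% of the reads in R448Q ID, 1.62% and 1.92% in WT ID and 1.22% to 3.23% in the 18 other treated libraries.

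Ctcf RNA was higher in R448Q. Its normalized counts were 20200 and 20661 in R448Q ID and 9973 and 10418 in WT ID, against 8262 to 16951 in the libraries of the other 8 mutants. The R448Q libraries therefore lay above all of those libraries. The log2 fold change against WT ID was 1.003 ± 0.06 (limma adjusted p = 2.9e-10). Ctcf lies on chromosome 8, which stood higher as a whole in this line, and relative to its stretch of the chromosome the difference was 0.55. Whether transgene reads were counted under Ctcf is not given in the sources used here, and RNA does not report the degraded protein. Of 24 tested genes that extrude loops or partner CTCF, 10 rose and 2 fell, where 22.8% of all tested genes rose and 23.1% fell. On TPM 4 rose and 4 fell, where 2734 of all 18713 genes rose and 6026 fell. The median log2 fold change of the list was 0.14. Less the median of all genes it was 0.15 on TPM and 0.05 after quantile normalization. Patz1, a zinc finger factor described as a CTCF partner, went from 8529 and 8049 to 13939 and 14023 (0.75 ± 0.06, adjusted p = 1.23e-08). The cohesin acetyltransferase Esco2 fell (−0.47 ± 0.09). The cohesin ring genes Smc1a (0.16), Smc3 (−0.07) and Stag2 (0.06) did not pass the test. Rad21, another ring gene, was called at 0.20 ± 0.07, and the call ended after centring along chromosomes (adjusted p = 0.0697) and without WT ID replicate 1 (adjusted p = 0.193). Ctcfl, the germline paralog of Ctcf, was low at 11.1 and 17.6 against 2.93 and 8.02 (adjusted p = 0.103).

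Genes of whole chromosomes stood apart in the R448Q line. The median level of the genes of each chromosome, relative to all genes, was 0.41 and 0.37 log2 units for chromosome 1 in the R448Q libraries and −0.10 and −0.09 in WT ID. For chromosome 3 it was 0.44 and 0.43 against −0.03 and −0.04, and for chromosome 8 it was 0.33 and 0.33 against −0.11 and −0.11. On these 3 chromosomes the R448Q and WT ID libraries did not overlap. Relative to the 16 chromosomes other than 1, 3, 8 and 11, the difference was 0.57 on chromosome 1 (1.48-fold), 0.55 on chromosome 3 (1.47-fold) and 0.53 on chromosome 8 (1.44-fold). Limma adjusted p over the 20 chromosomes was 3.87e-11, 5.81e-14 and 1.16e-14 for the differences relative to all genes (0.48 ± 0.03, 0.47 ± 0.02 and 0.44 ± 0.01). No other library reached the R448Q values on chromosomes 1 and 3, while both H455R libraries did on chromosome 8. Chromosome 11 as a whole was 0.13 ± 0.02 higher (adjusted p = 6.11e-07), at 0.01 in both R448Q libraries, below both R377H libraries (0.42 and 0.41) and both K365T libraries (0.23 and 0.27). Among the remaining chromosomes the difference relative to all genes ran from −0.17 on chromosome 7 to 0.06 on chromosome X, with parts of some of them further apart.

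**Figure D1:**
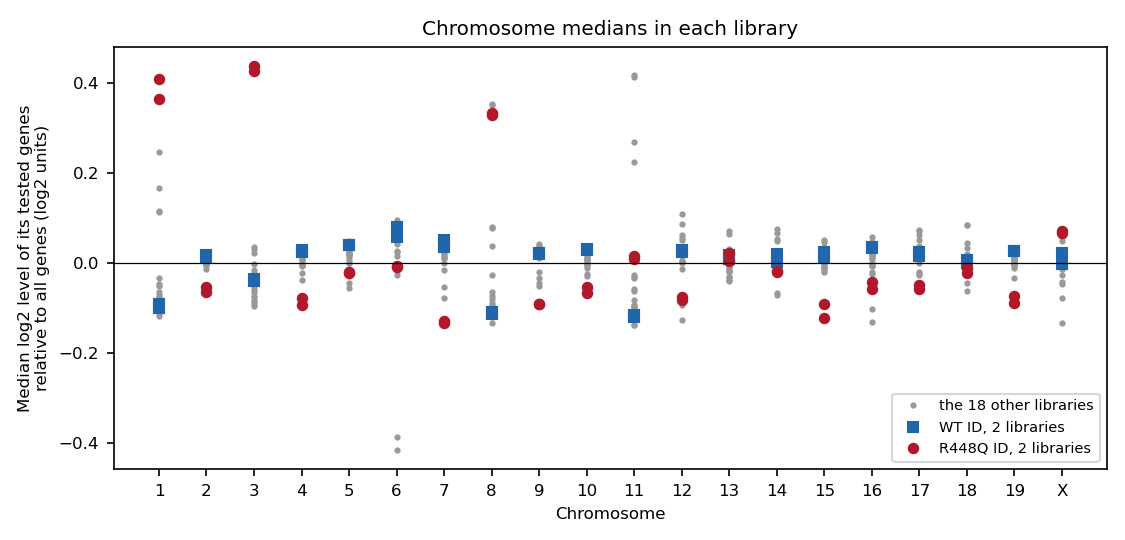
Median log2 level of the tested genes of each chromosome (horizontal axis) relative to all genes, in log2 units, with 1 point per library. Both R448Q ID libraries (red circles) lie between 0.33 and 0.44 on chromosomes 1, 3 and 8, where both WT ID libraries (blue squares) lie between −0.11 and −0.03, and grey points are the 18 other treated libraries.

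The shift ran the whole length of chromosomes 1, 3 and 8 but not of chromosome 11. With the genes of each chromosome cut into 10 runs of equal number, the difference between R448Q and WT ID relative to the 16 other chromosomes was 0.46 to 0.66 on chromosome 1. It was 0.43 to 0.76 on chromosome 3 and 0.41 to 0.71 on chromosome 8. The 0.76 came from the last run of chromosome 3, where the WT ID replicates stood apart (−0.08 and −0.26) and R448Q at 0.57 and 0.60. In the run before it the WT ID replicates stood at −0.09 and 0.13. The WT IAA replicates stood at −0.02 and −0.22 in the last run and at 0.03 and 0.13 in the run before it. On chromosome 11 the first and second runs stood 0.58 and 0.42 higher, the third to sixth (51220473 to 87555823 in mm10) between −0.12 and 0.08, and the last 4 runs between 0.35 and 0.56. The widest gap of any run was at the end of chromosome 17 (74338987 to 94878321), where 64 of 84 genes rose and 1 fell. There the medians were 0.29 and 0.29 in R448Q, −0.72 and −0.72 in WT ID and −0.70 and −0.71 in WT IAA, with a median of 0.22 over the other mutant libraries (range −0.70 to 0.29). Both groups of the WT transgene line were thus low here, and R448Q lay within the range of the other mutants. On chromosome X the run from 134086421 to 140767715 stood 0.44 higher, with 24 of 60 genes raised and 4 lowered. Runs on chromosomes 12 and 15 reached −0.46 and −0.40. In the chromosome 12 run R448Q (−0.25 and −0.14) lay within the range of the other mutant libraries (−0.63 to 0.70), and WT ID stood at 0.19 and 0.34. In the chromosome 15 run R448Q (−0.41 and −0.33) lay below the other mutant libraries (−0.06 to 0.16). No DNA was measured in these files, and the part of chromosome copy number in these values was not tested.

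**Figure D2:**
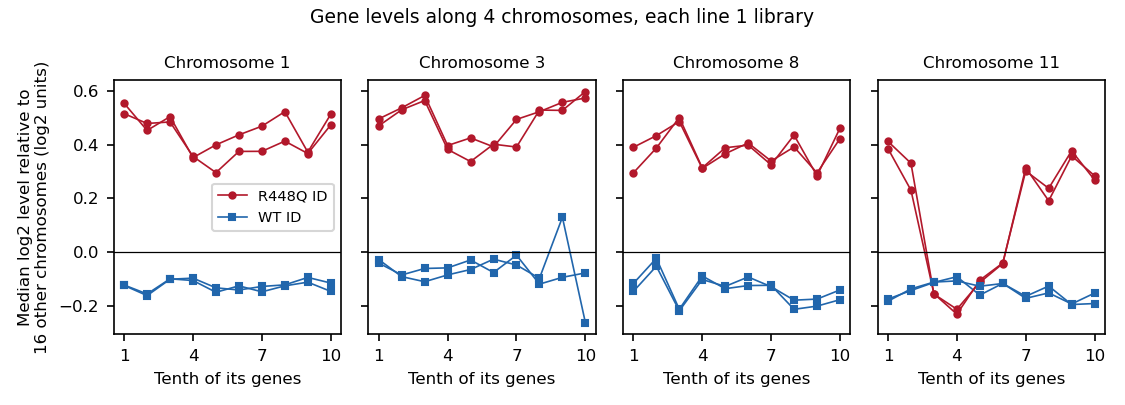
Median log2 level of 10 consecutive runs of the tested genes along chromosomes 1, 3, 8 and 11, relative to 16 other chromosomes, with 1 line per library. R448Q ID lines (red) stay above WT ID lines (blue) along chromosomes 1, 3 and 8, and on chromosome 11 they meet in the third to sixth runs.

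In all, 8578 of 18713 tested genes differed between R448Q ID and WT ID (45.8%), 4259 of them higher (22.8%) and 4319 lower (23.1%). By at least 2-fold 996 rose (5.32%) and 1541 fell (8.23%). In 38.1% of all genes both R448Q libraries lay above both WT ID libraries, and in 38.7% below. On TPM the median of all genes moved by −0.17 and the calls split into 2734 higher and 6026 lower, so the sign of small differences depends on the scaling. After centring along chromosomes 3703 were higher and 3890 lower. Counts of list members on TPM or after centring are to be read against these totals. Genes of chromosomes 1, 3, 8 and 11 were 23.6% of those tested and gave 47.5% of the increases and 11.9% of the decreases. These chromosomes were set apart with earlier results of these data known, so an excess of increases on them is part of that choice. On these chromosomes 45.7% of genes rose and 11.6% fell, against 15.7% and 26.6% elsewhere. Gene values below are therefore also given after centring along chromosomes where that ends a call or moves a value by over 1.5 times.

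The 12 largest named increases were led by Igsf10, which codes for a secreted protein of the immunoglobulin superfamily (chromosome 3, 59316735 to 59344394). Its counts were 653 and 567 in R448Q and 18.3 and 31.1 in WT ID, a log2 fold change of 4.62 ± 0.30 (± SE, on normalized count + 1, limma adjusted p = 7.01e-10). The other 8 mutants gave 12.8 to 313, so the R448Q libraries lay above those as well. Of its neighbours within 250 kb 1 was tested, and it was not called. Sh3bgrl, a small protein of thioredoxin-like fold (chromosome X, 109095365 to 109197873), stood at 1184 and 1023 against 41.7 and 56.2 (4.48 ± 0.26, adjusted p = 1.84e-10) and at 38.5 to 693 in the other mutants. Genes were named here only where the R448Q and WT ID libraries did not overlap, so that gap is part of the choice.

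Among the other increases was Hhip, which binds and blocks Hedgehog ligands (chromosome 8, 79965851 to 80058006). It rose from 71.0 and 47.1 to 1284 and 693 (4.004 ± 0.27, adjusted p = 8.47e-10). Evc and Evc2 are neighbours on chromosome 5 that code for partner proteins of the cilium base, where they pass on the Hedgehog signal. Evc counted 1008 and 707 against 35.8 and 103 (3.77 ± 0.35) and Evc2 counted 2035 and 1729 against 120.0 and 239.6 (3.46 ± 0.24). In the other mutants Evc reached 781, above the lower R448Q library. The centrosomal protein gene Cntln rose as well (3.20 ± 0.32), as did the ion channel Trpa1 with 1892 and 1828 against 208 and 182 (3.25 ± 0.19). The remaining named increases were the sphingosine phosphate phosphatase Sgpp2 (4.13 ± 0.40), the organic anion transporter Abcc2 (3.70 ± 0.33), the myelin gene Mobp (3.37 ± 0.29), the melanocortin receptor Mc5r (3.35 ± 0.46) and the germline gene Tex19.2 (3.18 ± 0.29). Adjusted p for these 12 genes was at most 6.66e-06 (Mc5r).

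**Figure D3:**
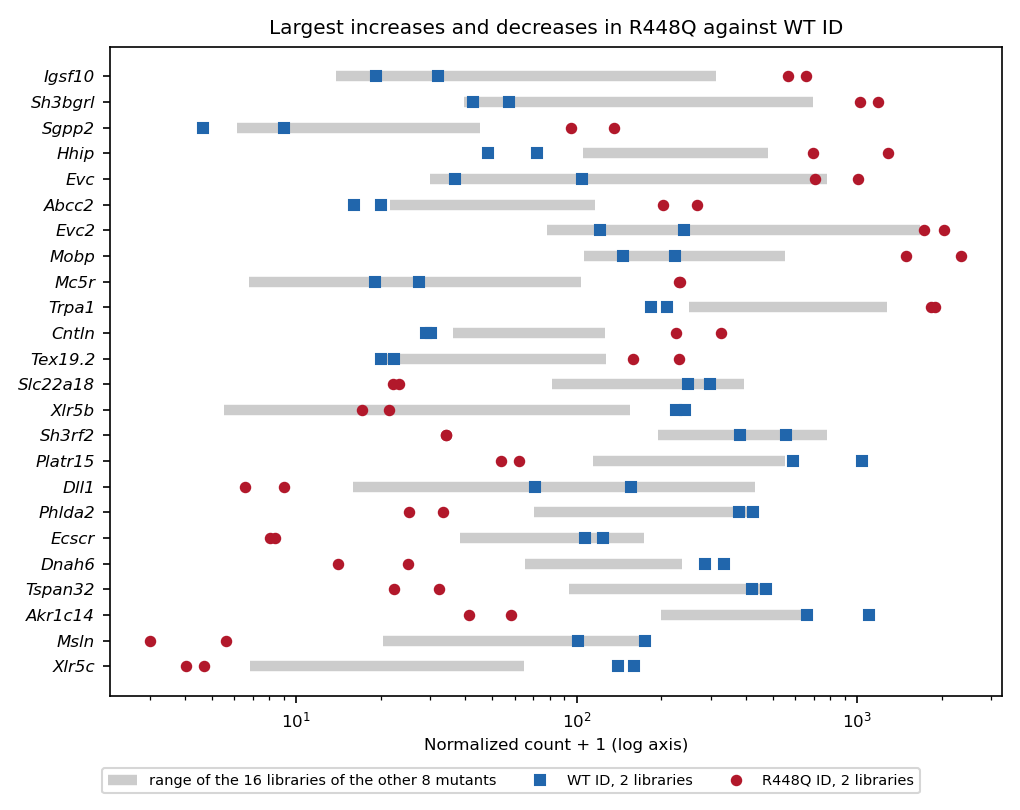
Normalized counts (log axis, count + 1) of the 12 largest named increases and 12 largest named decreases in R448Q ID (red circles, 2 libraries) and WT ID (blue squares, 2 libraries). Grey bars span the 16 libraries of the other 8 mutants, and the R448Q points lie outside them except at Evc and Xlr5b.

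The 12 largest named decreases spanned −5.11 to −3.59 on the log2 scale. Msln, which codes for the surface protein mesothelin (chromosome 17, 25748613 to 25754378), fell from 174 and 100.3 to 2.02 and 4.62 (−5.02 ± 0.33, adjusted p = 6.79e-10), with 19.3 to 168 in the other mutants. At counts this low the fold depends on the value added before the log (−4.06 with 5 added). Akr1c14, an aldo-keto reductase of steroids (chromosome 13, 4049011 to 4090688), fell from 1100 and 662 to 40.3 and 57.3 (−4.12 ± 0.27, adjusted p = 5.75e-10). The axonemal dynein Dnah6 went from 285 and 334 to 13.1 and 24.0 (−4.04 ± 0.24). For these 3 genes the R448Q libraries also lay below those of the other 8 mutants, while no overlap with WT ID was a condition of naming. Dll1, a ligand of the Notch receptors, fell from 155 and 70.2 to 8.07 and 5.54 (−3.77 ± 0.68, adjusted p = 0.000128). Ecscr, a surface protein of endothelial cells, fell by 3.81 ± 0.21 on the log2 scale and the scaffold protein gene Sh3rf2 by 3.75 ± 0.20. Platr15, a noncoding RNA of pluripotent cells, stood at 52.4 and 61.0 against 1039 and 591 (−3.77 ± 0.39). The other 5 were Tspan32, Phlda2 and Slc22a18 of 1 imprinted domain and Xlr5c and Xlr5b of the X-linked Xlr cluster.

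A block of imprinted genes around Kcnq1ot1 on chromosome 7 differed between R448Q and WT ID. Kcnq1ot1 is a long noncoding RNA, transcribed from the paternal copy, that silences protein genes on both sides of it on that copy, while the maternal copy expresses them. Kcnq1ot1 rose from 5617 and 5376 to 16139 and 14406 (1.47 ± 0.26, adjusted p = 0.00011), above the other 8 mutants (2784 to 12946). Phlda2, a brake on placental growth (chromosome 7, 143501545 to 143503150), fell from 377.4 and 425 to 24.2 and 32.3 (−3.79 ± 0.22, adjusted p = 2.07e-10). The transporter gene Slc22a18 beside it fell from 247 and 298 to 21.2 and 22.2 (−3.59 ± 0.22). For both, the R448Q libraries also lay below those of the other 8 mutants (69.5 to 433 and 80.4 to 393). The cyclin-dependent kinase inhibitor Cdkn1c went from 287 and 258 to 68.6 and 85.9 (−1.81 ± 0.18).

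Genes on the other side of Kcnq1ot1 fell as well. The tetraspanin gene Tspan32 (chromosome 7, 143005046 to 143019644) fell from 473 and 420.1 to 31.3 and 21.2 (−4.06 ± 0.21, adjusted p = 6.8e-11) and the trophoblast factor Ascl2 from 204 and 102 to 15.1 and 19.4 (−3.004 ± 0.34). Cd81, another tetraspanin, held 9993 and 9307 in WT ID and 3623 and 3030 in R448Q (−1.54 ± 0.11). The potassium channel gene Kcnq1, within which Kcnq1ot1 lies, was at 2.02 and 0.924 against 10.97 and 13.04 (−2.43 ± 0.44, or −1.40 with 5 added to the counts), and its reads cannot be told apart from the antisense RNA if strand was not used in counting. Tssc4 stood at −0.35 ± 0.09 and, after centring along the chromosome, at 0.05 (adjusted p = 0.709). The histone chaperone gene Nap1l4 stood at 0.15 ± 0.06, a call that ended without R448Q ID replicate 1 (adjusted p = 0.318) and stood at 0.68 after centring. Within 700 kb of the Kcnq1ot1 start 22 genes were tested, a window chosen after the values were seen, and 2 rose, 16 fell and 4 did not pass. Of all genes 23.1% fell, and in the last of 10 runs of chromosome 7, which holds the window, 62 of 150 fell. Against WT IAA, cells with no transgene switched on, the same direction held for Kcnq1ot1 (1.34) and for Phlda2 (−4.24), Slc22a18 (−3.26) and Tspan32 (−3.58).

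**Figure D4:**
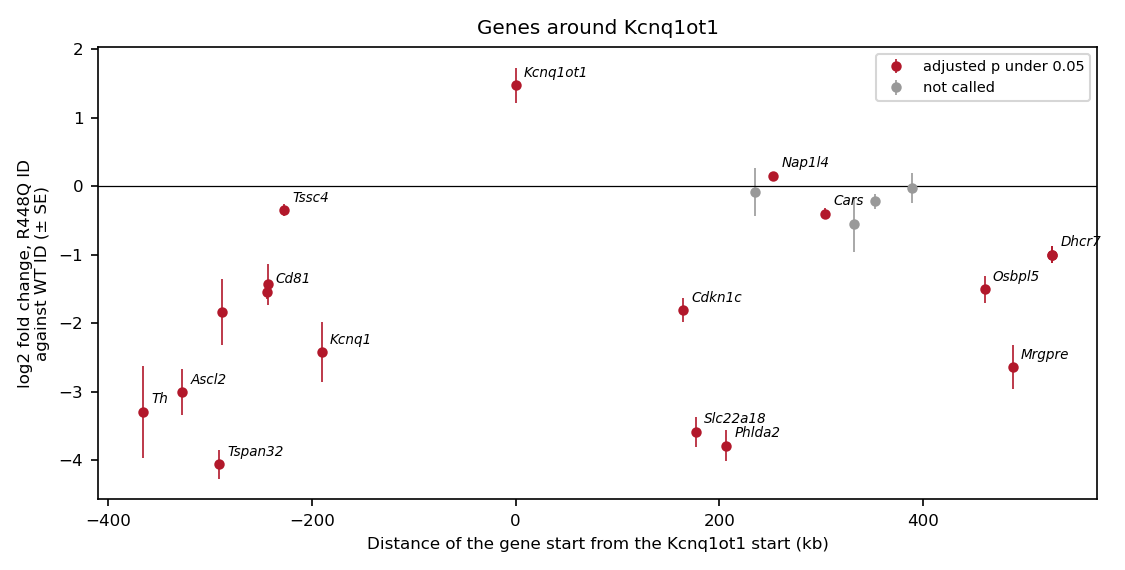
Log2 fold change of R448Q ID against WT ID with its standard error for the 22 tested genes whose start lies within 700 kb of the Kcnq1ot1 start, by distance in kb. Kcnq1ot1 stands at 1.47, and Phlda2 and Slc22a18 on one side and Tspan32 and Ascl2 on the other lie between −4.06 and −3.00 (red, called, grey, not called).

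Other imprinted genes moved in both directions. Of 45 tested imprinted genes 14 rose and 18 fell, against 22.8% and 23.1% of all genes, and after centring 13 rose and 16 fell. The neighbours Peg10, a retrotransposon-derived gene, and Sgce, a sarcoglycan gene, share a promoter region on chromosome 6. Peg10 went from 920.2 and 681 to 4061 and 2931 (2.12 ± 0.29) and Sgce changed by 1.87 ± 0.32. The hydrolase gene Mest rose from 407 and 423 to 1387 and 1694 (1.88 ± 0.18), and Ndn of the Prader-Willi region rose from 73.1 and 54.1 to 313 and 232 (2.08 ± 0.28). The groups did not overlap for any of these, though the other 8 mutants reached 3716 for Peg10 and 2371 for Mest, into or above the R448Q range. Among the decreases were the membrane proteolipid gene Nnat (−2.24 ± 0.22), the amino acid transporter gene Slc38a4 (−1.79 ± 0.11), the zinc finger gene Plagl1 (−1.35 ± 0.08) and the deubiquitinase-like gene Usp29 (−1.22 ± 0.21). The noncoding RNAs Meg3 (−0.997 ± 0.26), Rian (−0.96 ± 0.18) and Mirg (−1.23 ± 0.28), which lie in a row on chromosome 12, fell side by side. After centring they stood at −0.57, −0.61 and −0.91 (adjusted p = 0.026, 0.00296 and 0.00472).

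The X-linked Xlr3, Xlr4 and Xlr5 genes are near-identical copies that share reads, so single members are uncertain. Of 9 tested members 0 rose and 7 fell, against 22.8% and 23.1% of all genes. Xlr5c (chromosome X, 73282896 to 73292976) fell from 159 and 139 to 3.02 and 3.69 (−5.11 ± 0.36, adjusted p = 1.93e-09), Xlr5b from 243 and 225 to 16.1 and 20.3 (−3.62 ± 0.36) and Xlr5a from 248 and 229.6 to 28.2 and 14.8 (−3.48 ± 0.30). Xlr3c fell from 1644 and 1561 to 244 and 252 (−2.69 ± 0.25). Xlr4a at 621 and 679 against 529.6 and 413 and Xlr3a at 1384 and 1380 against 1642 and 1522 did not pass. The calls of Xlr3b and Xlr4b ended without R448Q ID replicate 1 (adjusted p = 0.193 and 0.0698), and that of Xlr3b also after centring (adjusted p = 0.148). Set against the mean of the other 8 mutants, 4 members were higher in R448Q (Xlr3a 1.12, Xlr3b 0.65, Xlr4a 1.87, Xlr4b 1.001) and 3 lower. Of all genes 25.7% were higher and 25.7% lower there. On summed TPM the list stood at 88.7 to 94.0 in R448Q, 190.0 to 223 in WT ID and 19.05 to 129.8 in the other 8 mutants, so WT ID lay above every mutant library.

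Germline and meiosis genes, which act in the making of eggs and sperm, rose in 20 of 35 tested cases and fell in 8, against 22.8% and 23.1% of all genes. The median log2 fold change was 0.95 (0.51 after centring along chromosomes), and for all genes −0.01. The summed TPM of the list did not move with it, at 1115 to 1124 in R448Q and 1102 to 1138 in WT ID. Against the mean of the other 8 mutants 15 members were higher and 10 lower, with a median of 0.17. In that comparison 25.7% of all genes were higher and 25.7% lower. The counts were 17 and 5 against H455R (median 0.52), where 21.9% of all genes were higher and 22.7% lower. They were 19 and 6 against WT IAA (median 0.56), where 23.6% of all genes were higher and 23.2% lower. Sycp1 codes for the rungs of the synaptonemal complex that holds paired chromosomes. It stood at 279 and 212 against 47.5 and 49.1 (2.31 ± 0.23, adjusted p = 1.41e-07). Tex19.2 held 157 and 231 against 21.2 and 19.05 and its paralog Tex19.1 changed by 1.69 ± 0.10 (1.06 after centring). In the piRNA pathway, which guards the germline against transposons, the tudor genes Tdrkh (1.98 ± 0.24) and Tdrd1 (1.35 ± 0.33), the Piwi gene Piwil2 (1.36 ± 0.19), Asz1 (2.19 ± 0.51) and Mov10l1 (1.18 ± 0.21) rose, and Gtsf1 fell from 189 and 213 to 40.3 and 47.1 (−2.18 ± 0.21, −1.28 centred). The germ cell RNA-binding gene Dazl (1.64 ± 0.23) and the helicase gene Ddx4 (1.62 ± 0.16) also rose. Meiotic genes that fell were Sycp3, an axis protein of meiotic chromosomes (−0.95 ± 0.18), and the cohesin subunit Smc1b (−1.16 ± 0.20). For Smc1b the libraries held 358 and 347 in R448Q and 828 and 753 in WT ID. Groups did not overlap for Sycp1, Gtsf1 and Smc1b.

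Many germline promoters carry the palindromic hexamer CACGTG, which the repressor complex PRC1.6 and other basic helix-loop-helix factors recognise. It was looked for on both strands of RefSeq promoters of GRCm38.p6 (250 bases before to 50 after the gene start). A gene was counted once if any of its promoters held the motif. CACGTG was present in 15 of 30 germline genes with a promoter (50%) and in 11.3% of the 12170 tested genes with a promoter. Counted per promoter instead, it was present in 7.15% of all 32851 promoters. Among germline genes with a promoter it was present in 9 of 17 that rose and 2 of 7 that fell. The 60-base stretches below hold it in capitals, upstream of 5 genes that rose (Sycp1, Slc25a31, Ddx4, Tdrd1, Brdt) and 1 that fell (Sycp3), to show that genes with it moved in both directions. A reduced core of the CTCF motif was searched in the same windows and also counted per gene. It was present in 2.93% of genes that rose, 3.8% of those that fell and 3.36% of those not called. In the germline list it was present in 5 of 30 genes with a promoter (16.7%). Matches of either motif describe letters in a window, and no binding was measured.
Sycp1 (chr3:102936162-102936221, minus strand): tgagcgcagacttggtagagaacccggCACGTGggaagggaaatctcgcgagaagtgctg
Slc25a31 (chr3:40708751-40708810, plus strand): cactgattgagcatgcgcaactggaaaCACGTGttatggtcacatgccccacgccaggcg
Ddx4 (chr13:112652311-112652370, minus strand): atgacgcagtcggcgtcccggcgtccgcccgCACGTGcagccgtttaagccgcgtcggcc
Tdrd1 (chr19:56826149-56826208, plus strand): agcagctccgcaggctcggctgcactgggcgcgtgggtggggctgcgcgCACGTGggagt
Brdt (chr5:107331089-107331148, plus strand): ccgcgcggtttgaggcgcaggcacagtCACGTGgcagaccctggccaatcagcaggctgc
Sycp3 (chr10:88459496-88459555, plus strand): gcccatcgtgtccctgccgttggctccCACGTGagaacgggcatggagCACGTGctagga

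Core and naive pluripotency genes stayed expressed. Pou5f1, the factor that defines pluripotent cells, held 22778 and 23066 in R448Q and 19161 and 19246 in WT ID, and Nanog held 46344 and 49375 against 35872 and 36562 (0.40 ± 0.08, 0.23 on TPM). The Pou5f1 difference of 0.26 ± 0.08 ended as a call without R448Q ID replicate 2 (adjusted p = 0.0602). Sox2, on chromosome 3, was at 0.49 ± 0.08 and at −0.01 after centring, where the call ended and the sign turned. Of 28 tested members 13 rose and 4 fell, against 22.8% and 23.1% of all genes. On TPM 8 rose and 5 fell, where 2734 of all 18713 genes rose and 6026 fell. The naive factors Klf2 (0.97 ± 0.11, 0.56 centred) and Nr5a2 (0.99 ± 0.08, 0.49 centred) lie on raised chromosomes. Dppa3, a maternal factor that protects DNA methylation imprints, is not on one of them and went from 966 and 978 to 2178 and 2784 (1.34 ± 0.30). Klf5 fell from 17416 and 17797 to 10052 and 10608 (−0.77 ± 0.07), and the receptor for leukemia inhibitory factor, Lifr, by 0.40 ± 0.07 on the log2 scale. Of 16 formative and primed genes 2 rose and 7 fell. The homeobox gene Nkx1-2 stood at 915 and 1151 against 129 and 206 (2.65 ± 0.23), and the tight junction gene Cldn6 at 215 and 225 against 766 and 669.8 (−1.70 ± 0.15).

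Of 16 genes of the 2-cell-like state 5 were called higher and 2 lower (2 and 2 on TPM), against 22.8% and 23.1% of all genes. The raised genes were scarce, with mean normalized counts of 11.1 to 37.6 in R448Q. One of them was Zscan4d (26.2 and 24.9 against 8.05 and 4.01), a copy in a near-identical family, and its call ended without WT ID replicate 2 (adjusted p = 0.127), as did those of Gm4340 (0.0706) and Sp110 (0.0982). The PRAME family genes Pramel7 and Pramel6 fell. Pramel7 went from 783 and 719 to 49.4 and 125 (−3.24 ± 0.35) and Pramel6 from 1500 and 1507 to 204 and 461 (−2.29 ± 0.34), with no overlap between groups. The summed TPM of the list was 15.5 to 27.4 in R448Q and 79.1 to 89.0 in WT ID, so it fell although the median log2 fold change over its members was 1.25. Increases were called against WT ID alone. Against the other 8 mutants 0 members were higher and 3 lower (median 0.16). The counts were 0 and 3 against H455R (median −1.03) and 0 and 4 against WT IAA (median −1.10). Of all genes 25.7% were higher and 25.7% lower against the other 8 mutants. The shares were 21.9% and 22.7% against H455R and 23.6% and 23.2% against WT IAA. The decreases of the list in these 3 comparisons were thus near the shares of all genes.

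Among genes that write, read and erase DNA methylation 7 of 19 rose and 4 fell, against 22.8% and 23.1% of all genes. On TPM 3 rose and 6 fell, where 2734 of all 18713 genes rose and 6026 fell. The de novo methyltransferase gene Dnmt3b fell from 4011 and 3839 to 2293 and 2590 (−0.69 ± 0.10), and Dnmt1 (0.04), which copies methylation at replication, did not pass. The demethylating enzyme gene Tet2 rose by 0.86 ± 0.12 and the histone methyltransferase gene Setdb1 by 0.74 ± 0.06. Both lie on chromosome 3 and stood at 0.34 and 0.35 after centring (adjusted p = 0.0153 and 0.000202).

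Marker lists of other lineages were mixed, and in bulk RNA fewer cells of a type and less RNA per cell cannot be told apart. The counts below stand against 22.8% of all genes that rose and 23.1% that fell. Of 14 trophectoderm and keratin markers 2 rose and 7 fell, and their summed TPM was 179.5 to 181 in R448Q and 248 to 295 in WT ID. The trophectoderm factor Cdx2, also a Wnt target, rose from 40.2 and 45.1 to 175 and 162 (1.96 ± 0.31), while Gata2 fell from 1174 and 976 to 432 and 304 (−1.56 ± 0.25) and the keratins Krt18 (−1.44 ± 0.17) and Krt19 (−1.55 ± 0.36) fell. Of 14 primitive endoderm markers 4 rose and 3 fell, with summed TPM of 618 to 619 against 633 to 692. Dab2 was at 31.3 and 76.7 against 336 and 213 (−2.42 ± 0.37) and Pdgfra at 388 and 331 against 205 and 166 (0.95 ± 0.22). Of 9 mesendoderm markers 4 rose and 3 fell (summed TPM 27.0 to 27.2 against 36.6 to 42.7), and of 9 fibroblast markers 2 rose and 3 fell (33.0 to 35.2 against 41.4 to 45.4). Neural ectoderm markers had the one higher sum, 213 to 228 against 95.8 to 101.4 in WT ID and 63.0 to 187.5 in the other 8 mutants, with 3 of 6 raised and 0 lowered. Of these 6 genes 4 lie on chromosomes 1, 3, 8 or 11. After centring 2 rose and 0 fell, and the median went from 0.49 to 0.27. On TPM 2 rose and 1 fell. Tubb3, a tubulin of neurons on chromosome 8, held 4363 and 4290 against 1188 and 1099 (1.92 ± 0.22) and the neural factor Sox1 held 792 and 657 against 418.4 and 316 (0.99 ± 0.16, 0.60 centred). Defining markers such as Dcx, Olig2, Cer1, Prl3d1, Tpbpa, Prrx1 and Dcn averaged under 1 normalized count over the 22 libraries. The part of such cells in the other gene groups was not tested.

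Signalling genes were examined because the medium holds an activator of Wnt signalling and an inhibitor of the ERK pathway. Wnt and beta-catenin targets rose in 10 of 18 cases and fell in 2, against 22.8% and 23.1% of all genes. After centring these counts were 7 and 2, where 3703 of all 18713 genes rose and 3890 fell. On TPM they were 7 and 4, where 2734 of all genes rose and 6026 fell. Of the 18 targets 8 lie on chromosomes 1, 3, 8 or 11. The cell cycle cyclin Ccnd1 held 2524 and 2566 against 756 and 793 (1.72 ± 0.10, adjusted p = 1.21e-10). Lef1, a factor that binds beta-catenin, held 526 and 740.0 against 179.9 and 136 (1.99 ± 0.30). The secreted Wnt inhibitor Dkk1 went the other way, from 808 and 773 to 189 and 327 (−1.67 ± 0.23).

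Among 20 ERK feedback and immediate early genes 6 rose and 8 fell. Over all tested genes 22.8% rose and 23.1% fell, shares that also stand beside the BMP and Nodal counts below. Fos was at 121 and 122 against 445 and 528 (−1.99 ± 0.29) and the phosphatase Dusp1 at 854 and 807 against 1835 and 1713 (−1.09 ± 0.14), while Myc was at 624 and 703 against 220.2 and 289 (1.39 ± 0.24) and the ERK brake Spry4 at 437 and 397 against 221 and 199 (0.99 ± 0.24). Of 17 genes of the BMP signal 6 rose and 6 fell (4 and 7 on TPM). The inhibitors of differentiation split, with Id2 at 50.4 and 46.2 against 243 and 233 (−2.28 ± 0.22) and Id3 at 293 and 465 against 75.3 and 136 (1.85 ± 0.44). Smad6, a brake on the BMP signal, fell by 1.27 ± 0.14 and the ligand Bmp7 by 1.13 ± 0.15 on the log2 scale. Of 15 Nodal pathway genes 1 rose and 6 fell, among them Furin, the protease that matures the ligand (−0.91 ± 0.09), and the receptor Acvr1b (−0.57 ± 0.10, −0.31 centred).

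Targets of p53 were lower more often than higher, with 3 of 32 raised and 14 lowered against 22.8% and 23.1% of all genes. The cell death gene Bbc3 held 407 and 431 in R448Q against 1191 and 967 in WT ID (−1.35 ± 0.19, adjusted p = 6.35e-06). Gdf15, a stress-induced cytokine, fell from 784 and 689.9 to 309.6 and 240.2 (−1.43 ± 0.22). The arrest gene Cdkn1a (−0.12) and the p53 antagonist Mdm2 (−0.21) did not pass. Of 32 genes of the integrated stress response 5 rose and 13 fell, and after centring the counts were 5 and 6. The cystine carrier Slc7a11 (1.41 ± 0.29, 0.81 centred) and the serine synthesis enzyme Phgdh (1.31 ± 0.19, 0.87 centred), both on chromosome 3, rose, and Chac1, which breaks down glutathione, fell (−0.64 ± 0.15). Cholesterol synthesis gave 1 increase and 11 decreases of 23. Dhcr7, the enzyme of the last step, held 1530 and 1357 against 3148 and 2640 (−1.0002 ± 0.12), and it lies 527 kb from Kcnq1ot1 in the region described above. Hsd17b7 on chromosome 1 was the member that rose (0.91 ± 0.10, 0.48 centred).

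Mitochondrially encoded genes rose in 7 of 15 cases and fell in 0, where 22.8% of all genes rose and 23.1% fell. Cytochrome b (mt-Cytb) held 262895 and 299482 against 87892 and 107503 (1.53 ± 0.29) and mt-Nd1, a subunit of complex I, 284656 and 298278 against 110206 and 129521 (1.29 ± 0.28). The summed TPM of the list was 88470 to 91270 in R448Q, 45910 to 52270 in WT ID and 32270 to 84970 in the other 8 mutants. The R448Q libraries thus lay above all of those. Of 44 nuclear genes of oxidative phosphorylation 14 rose and 2 fell, and after centring 17 rose and 1 fell. On TPM 11 rose and 11 fell, where 2734 of all 18713 genes rose and 6026 fell, and after quantile normalization 14 and 7. The median log2 fold change of these nuclear genes was 0.15. Less the median of all genes it was 0.15 on TPM and 0.07 after quantile normalization. The sum of these nuclear genes on TPM did not follow (9643 to 9657 against 9685 to 10180). Of 30 genes of glycolysis and hypoxia 7 rose and 14 fell, or 7 and 7 after centring. The vessel growth factor Vegfa fell from 4719 and 5132 to 3002 and 2673 (−0.80 ± 0.09). Of 28 heat shock and unfolded protein genes 11 rose and 4 fell (median 0.13). On TPM 6 rose and 9 fell and after quantile normalization 11 and 9. Less the median of all genes, their median was 0.13 on TPM and −0.01 after quantile normalization. The chaperone Hspa8 held 73112 and 79726 against 33068 and 39540 (1.08 ± 0.14) and the small heat shock protein Hspb1 3569 and 4494 against 10528 and 10070 (−1.36 ± 0.11).

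Cell cycle genes were called in both directions, 13 of 38 higher and 11 lower, against 22.8% and 23.1% of all genes. On TPM 9 were higher and 18 lower, where 2734 of all 18713 genes rose and 6026 fell. Cdkn2a, the Ink4a and Arf tumour suppressor locus, held 533 and 358 against 162 and 108 (1.71 ± 0.28), and the cyclin Ccne2 1491 and 1460 against 800.2 and 773 (0.91 ± 0.12). The mitotic cyclin Ccnb2 (−0.58 ± 0.10) and the phosphatase Cdc25b (−0.79 ± 0.10) fell. Replication-dependent histone genes, whose copies share reads, rose in 13 of 30 cases and fell in 0. After centring the counts were 13 and 3.

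**Figure D5:**
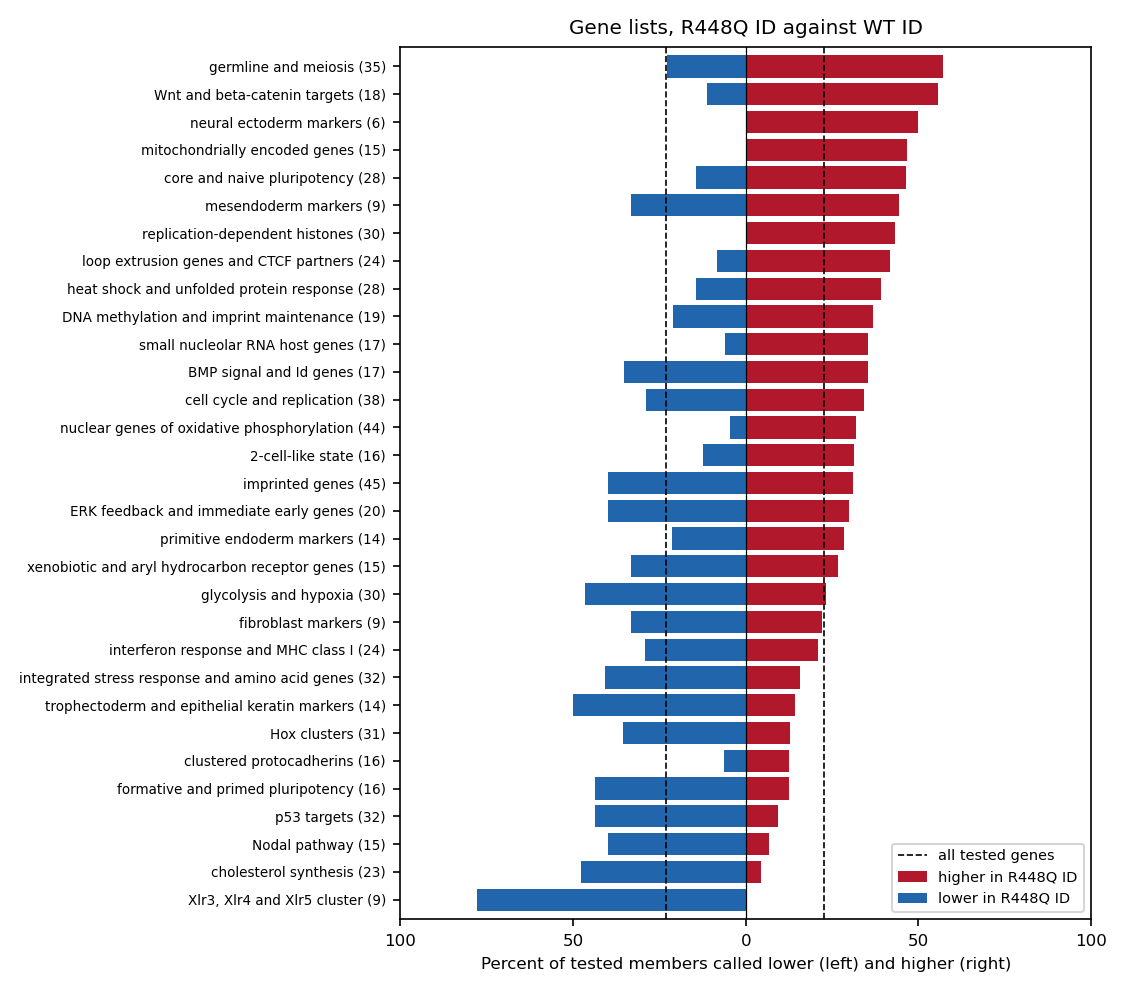
Percent of the tested members of each of 31 gene lists called lower (blue, to the left) and higher (red, to the right) in R448Q ID against WT ID, with the number tested in brackets. Dashed lines mark all tested genes (23.1% lower, 22.8% higher). The germline list has 20 of 35 members higher and the Xlr list 7 of 9 lower.

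The next comparison set R448Q ID against the mean of the other 8 mutant groups, which asks what sets this line apart from lines on other substituted proteins. No WT ID value enters the difference itself, though the WT ID libraries are part of the fit that gave the spread. Of 18713 genes 9628 were called (51.5%), 4818 higher (25.7%) and 4810 lower (25.7%), with 509 at least 2-fold higher (2.72%) and 1566 at least 2-fold lower (8.37%). In 12.6% of genes both R448Q libraries lay above all 16 others and in 12.3% below. The largest named increases were Igsf10 (3.06 ± 0.23), Sh3bgrl (3.01 ± 0.20), Mobp (2.84 ± 0.22), Cdx2 (2.52 ± 0.23), Mc5r (2.43 ± 0.35) and Sohlh2 (2.39 ± 0.14). Sohlh2, a helix-loop-helix factor of early germ cells on chromosome 3, held 6704 and 6717 in R448Q, 759 and 798 in WT ID and 617 to 4274 in the other mutants. Genes were named here only where both R448Q libraries lay outside all 16 others, so that gap is part of the choice. The largest named decreases were Msln (−4.12 ± 0.25), Ecscr (−3.56 ± 0.16), Tspan32 (−3.35 ± 0.16), Dll1 (−3.32 ± 0.51), the kallikrein protease Klk10 (−3.28 ± 0.25) and Slc22a18 (−3.24 ± 0.16). Adjusted p for these 12 was at most 1.68e-05 (Dll1). Chromosomes 1, 3 and 8 stood 0.41 ± 0.02, 0.47 ± 0.01 and 0.33 ± 0.01 above the mean of the other mutants, and on chromosome 11, where the R377H and K365T libraries stood highest, the difference was −0.01 ± 0.01 (adjusted p = 0.276).

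H455R changes another residue of the same finger, and R448Q ID was set against H455R ID directly. Of all genes 8349 were called (44.6%), 4093 higher in R448Q (21.9%) and 4256 lower (22.7%). Chromosome 8 was raised in both lines. Igsf10 held 653 and 567 in R448Q and 34.6 and 24.1 in H455R (4.35 ± 0.30, adjusted p = 1.51e-09), and the cell division gene family member Cdc20b held 126 and 124 against 3.58 and 8.31 (4.27 ± 0.44). Sh3bgrl (3.95 ± 0.26) and Mobp (3.83 ± 0.29) were the other named genes higher in R448Q. Lower in R448Q were the smooth muscle actin gene Acta2, at 2.02 and 0.924 against 139.5 and 133 (−5.83 ± 0.56, a fold that rests on 1 or 2 reads per R448Q library), and the receptor phosphatase gene Ptpru, at 61.5 and 43.4 against 1529 and 1562 (−4.875 ± 0.26). Klk10 (−4.98 ± 0.33) and Dppa1 (−4.86 ± 0.51) completed this set. The Kcnq1ot1 domain differed too, with Phlda2 at 392 and 376 and Tspan32 at 408 and 447.9 in H455R, near their WT ID counts and far above the R448Q counts. Of the 12 largest named decreases against WT ID, Dll1 was the one that did not pass here (−1.08 ± 0.68, adjusted p = 0.215).

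R448Q ID was last set against WT IAA, cells of the WT transgene line with endogenous CTCF degraded and no transgene switched on. The groups differ in cell line, in the transgene and in doxycycline, and these cannot be told apart. Of all genes 8760 were called (46.8%), 4411 higher in R448Q (23.6%) and 4349 lower (23.2%). The largest named increases were Igsf10 (4.94 ± 0.30), the sodium channel gene Scn3a (4.77 ± 0.26), Sh3bgrl (4.71 ± 0.26) and Hhip (4.26 ± 0.27), and the largest decreases Akr1c14 (−5.27 ± 0.27), Msln (−4.89 ± 0.33), Xlr5c (−4.73 ± 0.36) and the macrophage lectin gene Siglec1 (−4.61 ± 0.37). Scn3a held 479 and 349 in R448Q, 95.8 and 95.3 in WT ID and 16.1 and 12.2 in WT IAA. The integrated stress response genes, 5 up and 13 down against WT ID, were 23 up and 0 down of 32 against WT IAA. Clustered protocadherins, adhesion genes whose promoters CTCF binds, were higher than in WT IAA in 12 of 16 cases and lower in 1, while against WT ID 2 rose and 1 fell. Tex19.2 was at 122 and 146 in WT IAA and did not pass against it (0.51 ± 0.29, adjusted p = 0.159).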

How the data were processed

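RNA-seq of 24 libraries (12 groups of 2) was used here as gene-level values. The authors' deposited normalized counts are size-factor scaled signal values per gene, per the file headers and values. The submitters' processing notes name Trim Galore, STAR, DESeq2 and mm10, without versions or roles. The authors also deposited TPM. The sources used here name no read counter, annotation or strand setting, so overlapping antisense genes and near-identical copies are uncertain. Every library's values were whole multiples of 1 read (at least 99.934% within 0.001), and depth was taken from these recovered reads.

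Of 55291 genes, 18713 averaged 10 or more over the 22 treated libraries and were fitted with limma 3.58.1 (R 4.3.3) on log2(normalized count + 1), 1 coefficient per group, moderated with a trend (residual df 11). Benjamini-Hochberg adjusted p below 0.05 was called. This adjustment and test stand behind each adjusted p and ± value (SE) for genes. Chromosome medians of each library were fitted likewise over 20 chromosomes. Places come from GENCODE M21. "Centred" means after subtracting a running median of 101 genes along the chromosome, an alternative added after seeing the data. The fits were tested on simulated data. No column fell outside the series (0 columns).

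Named genes were the 12 largest called changes per direction against WT ID (mean count of at least 50, no overlap, no model names), 6 per direction against the other 8 mutants, 4 against H455R and WT IAA, up to 3 per direction in each list, and a few set names. Further genes, among them Kcnq1ot1, Cdkn1c, Cd81, Ddx4, Tdrd1, Sycp3, Meg3, Nnat and Smc3, were chosen after their values were seen. The members and the 31 gene lists (673 tested genes) were chosen with earlier results of these data known. Alternatives were edgeR 4.0.16 and DESeq2 1.42.0 on recovered reads, other pseudocounts, filters and scalings, TPM, a replicate block and leaving out each library.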

Additional observations from a re-analysis of the deposited data

Results flagged for a closer look

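Of the 8349 genes called in the direct test of R448Q ID against H455R ID (limma adjusted p), the 8 named here are the 4 largest in each direction by the naming rule, and WT ID served both effects. Igsf10 was 4.35 higher in R448Q on the log2 scale (adjusted p = 1.51e-09), from effects against WT ID of 4.62 in R448Q and 0.26 in H455R. Sh3bgrl differed by 3.95 (adjusted p = 8.48e-10, effects 4.48 and 0.53) and Cdc20b by 4.27 (adjusted p = 1.94e-07, effects 2.91 and −1.36). Mobp differed by 3.83 (adjusted p = 4.51e-09, effects 3.37 and −0.46).

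Acta2 differed by −5.83 (adjusted p = 7.51e-08, effects −3.80 and 2.03) and Klk10 by −4.98 (adjusted p = 9.43e-10, effects −2.31 and 2.67). Ptpru differed by −4.875 (adjusted p = 9e-11), with effects of −0.04 in R448Q and 4.83 in H455R. Dppa1 differed by −4.86 (adjusted p = 2.01e-07, effects −1.74 and 3.11), and its call against WT ID ended without R448Q ID replicate 2 (adjusted p = 0.151).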

How the results depend on the processing

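With 2 libraries a group, leaving out each library in turn gave 6601 to 7062 calls against WT ID, where all libraries gave 8578. The ranges were 7114 to 9944 against the other 8 mutants, 6616 to 6927 against H455R and 6960 to 7239 against WT IAA. The chromosome differences ranged from 0.46 to 0.51 for chromosome 1 and from 0.44 to 0.48 for chromosomes 3 and 8. Against WT ID, edgeR on recovered reads gave 8738 calls, DESeq2 8382, TPM 8760 (2734 higher, 6026 lower), centring along chromosomes 7593 (3703 higher, 3890 lower) and leaving out chromosomes 1, 3, 8 and 11 gave 5959. The 213 alternative values of the main results (call totals, list totals and chromosome differences) kept their direction and their side of the threshold, with call totals within 1.5 times. Calls in 1 direction moved further, to 2734 higher on TPM and 2198 higher without chromosomes 1, 3, 8 and 11, against 4259. The uncalled chromosome 11 difference against the other 8 mutants ranged from −0.018 to −0.0081 with a library left out. Fits with a replicate block gave 8611 calls. The replicate deviations of R448Q and WT ID correlated at 0.0512, so the replicate numbers showed no pairing between these groups. Over the 55 pairs of groups the correlation passed 0.1 in 10 and reached 0.38, so some other groups may share effects by replicate number. Of 223 genes followed 213 were called and 163 of these were called under all alternatives run. Signs turned after centring along chromosomes for Zmat3 (−0.21), Hsph1 (0.066), Ndufs8 (0.012), Skil (−0.23), Tiparp (−0.074), Sox2 (−0.013) and Tssc4 (0.053). They turned after centring on chromosome medians for Zmat3 (−0.19), Skil (−0.20) and Nes (−0.047), and on TPM for Nap1l4 (−0.015). Beyond the construction of these scalings the cause was not tested. Genes with fewer than about 10 normalized counts were not tested.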

Other observations

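Hox genes, the ordered set that patterns the body axis, were raised in 4 of 31 tested cases and lowered in 11, against 22.8% and 23.1% of all genes. After centring along chromosomes the counts were 2 and 6, where 3703 of all 18713 genes rose and 3890 fell. Hoxc8 held 26.2 and 27.7 in R448Q and 85.6 and 82.2 in WT ID (−1.60 ± 0.27, limma adjusted p = 5.92e-05), and Hoxa3 170.4 and 162 against 408 and 364 (−1.21 ± 0.20). Hoxa7 went the other way, with 414 and 406 against 149.96 and 176 (1.33 ± 0.18). Of 24 interferon response and MHC class I genes 5 rose and 7 fell (7 and 6 after quantile normalization). Tap1, which carries peptides to MHC class I, held 55.5 and 57.3 against 252 and 168 (−1.85 ± 0.21) and Ifitm3 683 and 478 against 1338 and 1367 (−1.24 ± 0.13).

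Host genes of small nucleolar RNAs rose in 6 of 17 cases and fell in 1, against 22.8% and 23.1% of all genes. Snhg11 held 3980 and 4508 against 1848 and 2092 (1.11 ± 0.25). Of 15 xenobiotic genes 4 rose and 5 fell. Aldh3a1, an aldehyde dehydrogenase under the aryl hydrocarbon receptor, held 719 and 322 against 121 and 150.4 (1.82 ± 0.31), and the receptor gene Ahr itself 267 and 209.7 against 443 and 395 (−0.82 ± 0.15).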
